A study of Mus musculus with 29 samples.

Results

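Complement is a set of blood and tissue proteins that mark microbes, dying cells and immune complexes for removal. The 9 complement genes C1qa, C1qb, C1qc, C1ra, C3, C4b, C3ar1, C5ar1 and Serping1 are described here in mouse hearts during heart failure (HF) and the recovery that followed. The rule that picked them was a list of names, with earlier results of these data known, and they are 9 of the 29,955 genes in the expression table. All 9 passed the filter on low values and are among the 12,759 genes tested.

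The study asked how gene expression in the mouse heart changes as heart failure develops and then recedes. C57BL6 mice, 3 months old at the start and male by the methods, drank water holding L-NAME (0.3 mg/ml), which blocks nitric oxide synthesis, and NaCl (1%) for 5 weeks. An osmotic pump delivering 0.7 mg/kg/day of angiotensin II, a peptide that raises blood pressure, was placed 1 week after the water was changed and ran for 28 days. HF week 3 and HF week 5 are hearts taken during this treatment. Recovery weeks 7, 9, 11, 13 and 19 are hearts taken after the water was returned to normal and the pump had run out, counted from the start of the protocol. Control week 19 holds untreated mice of the age of the Recovery week 19 mice. HF weeks 3 and 5 and Recovery weeks 7, 9, 11 and 13 were set against these older controls, so that treatment and age cannot be told apart in those comparisons. There were 5 libraries of Control week 19, 2 of HF week 3, 3 of HF week 5, 2 each of Recovery weeks 7, 9 and 13, 3 of Recovery week 11 and 5 of Recovery week 19. The labels call the tissue whole heart and whole ventricle, whereas the methods name apical portions. The libraries are numbered within their group and the numbers link no animals between groups. The labels do not say that each library is a separate animal, so p-values measure the spread between these libraries only.

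Complement can be started by C1, a complex of the recognition protein C1q with the proteases C1r and C1s, which cleaves C4 and C2 so that a convertase forms that cleaves C3. Cleaved C3 coats surfaces, and the small fragments C3a and C5a act on immune cells through the receptors C3ar1 and C5ar1. C1 inhibitor, the product of Serping1, stops C1r and C1s. In most tissues C1q is made by macrophages, while fibroblasts are a known source of C1r, C1s, C3 and C1 inhibitor.

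C1qb, C1qc and C1qa stand next to each other on chromosome 4. RefSeq promoters of build GRCm38.p6 were found for 6 of the 9 genes, not for C1qa, C4b and Serping1. The 250 bases before the start of transcription are shown, 5′ to 3′ on the strand of the gene, for the neighbours C1qb and C1qc, which encode chains of 1 protein, and for C3. Capitals mark the letters of a motif searched on both strands.
C1qb promoter, chr4:136886201-136886450, minus strand: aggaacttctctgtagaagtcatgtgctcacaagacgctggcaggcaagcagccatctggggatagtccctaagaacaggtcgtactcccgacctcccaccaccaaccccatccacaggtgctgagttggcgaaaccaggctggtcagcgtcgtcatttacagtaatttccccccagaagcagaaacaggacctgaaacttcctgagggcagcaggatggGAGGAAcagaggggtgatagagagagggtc
C1qc promoter, chr4:136892915-136893164, minus strand: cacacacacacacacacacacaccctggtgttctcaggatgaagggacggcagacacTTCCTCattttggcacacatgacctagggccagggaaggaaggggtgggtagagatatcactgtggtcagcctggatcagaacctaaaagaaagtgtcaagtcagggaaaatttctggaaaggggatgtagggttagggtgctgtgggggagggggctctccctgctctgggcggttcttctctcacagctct
C3 promoter, chr17:57228137-57228386, minus strand: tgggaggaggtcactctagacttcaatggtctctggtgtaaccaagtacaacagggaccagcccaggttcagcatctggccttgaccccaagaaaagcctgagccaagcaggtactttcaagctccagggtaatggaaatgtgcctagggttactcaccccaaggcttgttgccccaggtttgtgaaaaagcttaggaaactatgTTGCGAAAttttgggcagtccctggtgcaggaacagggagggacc
The capitals in C1qb and C1qc are the core letters GAGGAA that the myeloid factor PU.1 binds, read on the strand of the gene in C1qb, at position -30 from the start, and on the other strand in C1qc, at position -193. The same letters occur in 23.3% of 32,851 promoters of this length. The capitals in C3 are TTGCGAAA, a match to the C/EBP letters TTGCNNAA at position -45, letters that 9.56% of the promoters hold. C3ar1 matched the NF-kB motif on the other strand at position -14, as 1.41% of the promoters do. The STAT letters TTCNNNGAA and the interferon-stimulated response element, held by 7.02% and 2.98% of the promoters, were not matched in these 6 windows, and C1ra and C5ar1 matched none of the 5 motifs. These matches describe letters only.

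Expression was given in FPKM, that is, fragment numbers divided by transcript length and by the mapped total. The steps between low values gave 23 libraries a depth of 0.645 to 1.4 relative to each other, but not how many fragments that was. The first library of HF week 3 stood apart, with no such steps and 12,816 genes above 0 against 16,339 to 18,091 in the others, so the calls that rest on HF week 3 are given with and without it. Myh6, the main cardiac myosin heavy chain, was listed at 0 in every library of Control week 19, HF week 5 and Recovery week 19 and above 0 in all others. Actc1 and Myl2, cardiac actin and a myosin light chain, were also listed at 0 in every Control week 19 library and not in every library of any other group. A difference across these splits cannot be told apart from them. Every comparison with Control week 19 lies across them, as do HF week 5 against HF week 3 and Recovery week 7 against HF week 5. Myh6 was 106000 and 144000 FPKM at Recovery week 7. The 10 highest genes held 27.9% and 29% of the FPKM there, against 17.4% to 18.8% in HF week 5. Markers of atrium, mesothelium and fat also differed between libraries of the HF groups. The summed level of 6 atrial markers, of 7 listed with Nppa left out, was 45 to 54.6 FPKM in Control week 19 libraries. It was 40500, 459 and 42 FPKM in HF week 5 libraries 1 to 3, and 7990 and 14300 FPKM in HF week 3. Bmp10, 1 of the 6, was at 0 in every HF week 3 library. Adipoq, a fat cell hormone, stood at 10.5, 15.6 and 0.0516 FPKM in HF week 5 libraries 1 to 3. HF week 5 library 3 was thus the lowest of the 3 in both, and the calls of HF week 5 against Control week 19 and of Recovery week 19 against HF week 5 were also made without libraries 1 and 2.

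The lowest group mean was at Recovery week 7 for 8 of the 9 genes, and at Recovery week 9 for C4b. The highest was at Recovery week 13 for C1qa and C1qb, at Recovery week 11 for C1ra and Serping1, at Recovery week 19 for C5ar1, and at HF week 3 for C1qc, C3, C4b and C3ar1. The ratio of the highest to the lowest group mean was 1.99 for Serping1 and 3.96 for C1qc, the smallest and largest of the 9. Both ends depended on HF week 3 library 1. Without it the ratio ran from 2.48 for C1ra to 4.84 for C3, that of C1qc was 2.76 with its highest mean at Recovery week 13, and C1ra, C5ar1 and Serping1 had their highest mean at HF week 3. Of 63 pairs of groups that are neighbours in the order of their means, 57 had libraries that overlapped. In FPKM, which is per length, C1qa, C1qb, C1qc and Serping1 made up 79.8% to 93.5% of the summed level of the 9 genes, with a median of 89% over the 24 libraries. C3 came next in every group, and C1ra, C5ar1, C4b and C3ar1 had group means of at most 11.7 FPKM.

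**Figure D1:**
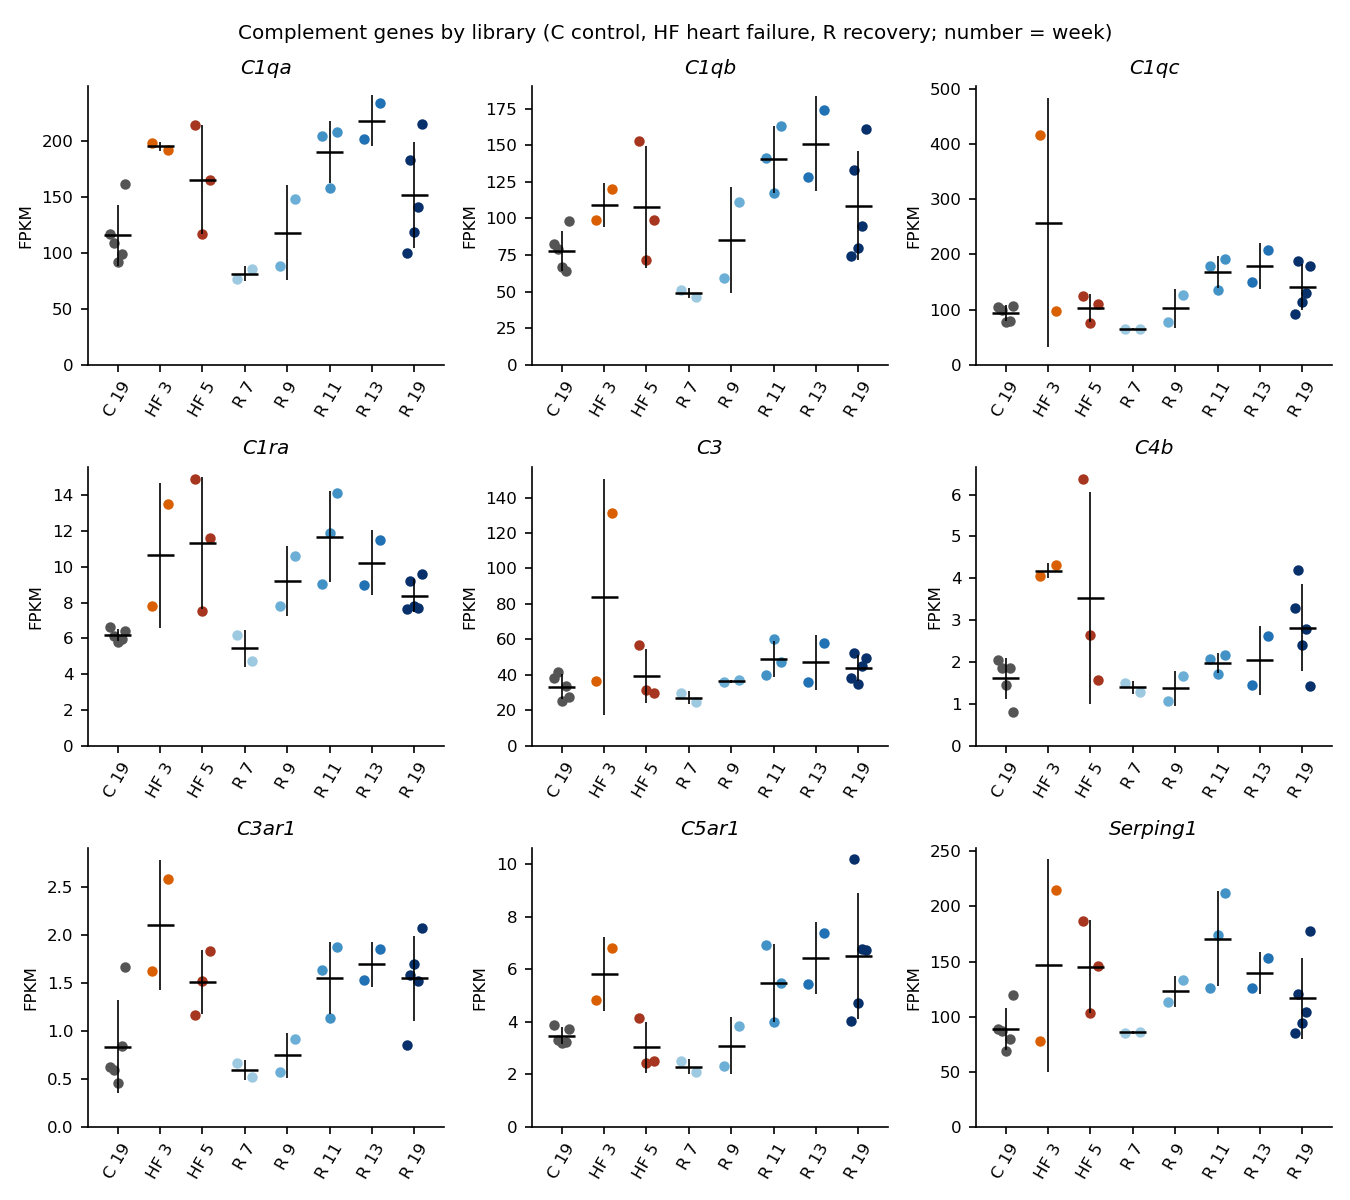
FPKM of the 9 complement genes (y axis, linear from 0) in each library (points) by group (x axis: C control, HF heart failure, R recovery, number for the week), with the group mean (horizontal line) and SD (vertical line; 2 to 5 libraries a group). The 2 Recovery week 7 libraries of C1qb, at 51.4 and 46.6 FPKM, lie below all other libraries of that gene, and C1qc at 417 FPKM in HF week 3 library 1 lies above all others.

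In HF week 5, C1ra was the gene of the set that passed the test against Control week 19, and it was higher. In Recovery week 7, C1qa, C1qb and C1ra were lower than in HF week 5. In Recovery week 19, C5ar1 was higher than in HF week 5. At an adjusted p under 0.05 (limma, Benjamini-Hochberg over the 12,759 genes), 1 of 9 rose in HF week 5 where 11.6% of all genes tested did, 3 of 9 fell from HF week 5 to Recovery week 7 where 6.75% did, and 1 of 9 rose from HF week 5 to Recovery week 19 where 12.3% did. The median log2 fold change of the 9 genes in these comparisons was 0.5, -0.86 and 0.01, beside 0.04, -0.05 and -0.04 over all genes tested. These comparisons share the HF week 5 libraries. The falls from HF week 5 to Recovery week 7 also lie across the split in Myh6, from which they cannot be told apart. At an unadjusted p under 0.05, 4 of 9 rose in HF week 5 (18.8% of all genes) and 5 of 9 fell from it to Recovery week 7 (15.4%). HF week 3 against Control week 19 gave 6 of 9 higher, C1qa, C1qc, C1ra, C3, C4b and C3ar1, where 23.1% of all genes were. Without HF week 3 library 1 there were 4, C1ra, C3, C3ar1 and Serping1 (14.7% of all genes), and without library 2 there were 2, C1qc and C4b (27.3%). With only these groups in the fit there were 4, where 14.8% of all genes were higher, C1qc (adjusted p = 0.104), C3 (0.0972) and C3ar1 (0.0575) being lost and C5ar1 (0.0264) gained, and with no filter on low values there were 4 (11.1% of all genes), C1qa (0.0653) and C1qc (0.0585) being lost.

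None of the 9 genes differed from Control week 19 at Recovery weeks 7, 9, 11, 13 or 19 at the adjusted p of limma, by which 0.047%, 0.0549%, 0.149%, 0.0784% and 0.0235% of all genes did. At an unadjusted p under 0.05 in limma, the only tool run, 1 was lower at week 7 (C1qb; 2.17% of all genes), 1 higher at week 9 (C1ra; 1.98%), 7 higher at week 11 (4.89%), 6 higher at week 13 (4.18%) and 4 higher at week 19 (2.01%). The 4 at week 19 were C1ra, C4b, C3ar1 and C5ar1. The 2 genes not among the 7 at week 11 were C3 and C4b, and Serping1 was also missing at week 13. With only the compared groups in the fit, C1qb, C1qc and C1ra passed the adjusted threshold at week 11, where 0.752% of all genes were higher, and the same 3 with C5ar1 passed at week 13, where 0.893% were. By overlap alone, 4 of 9 lay below all controls at week 7 (C1qa, C1qb, C1qc and C5ar1; 7.69% of all genes), 5 above all controls at week 11 (C1qb, C1qc, C1ra, C5ar1 and Serping1; 5.75%) and 6 at week 13 (the same 5 and C1qa; 13.1%).

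**Figure D2:**
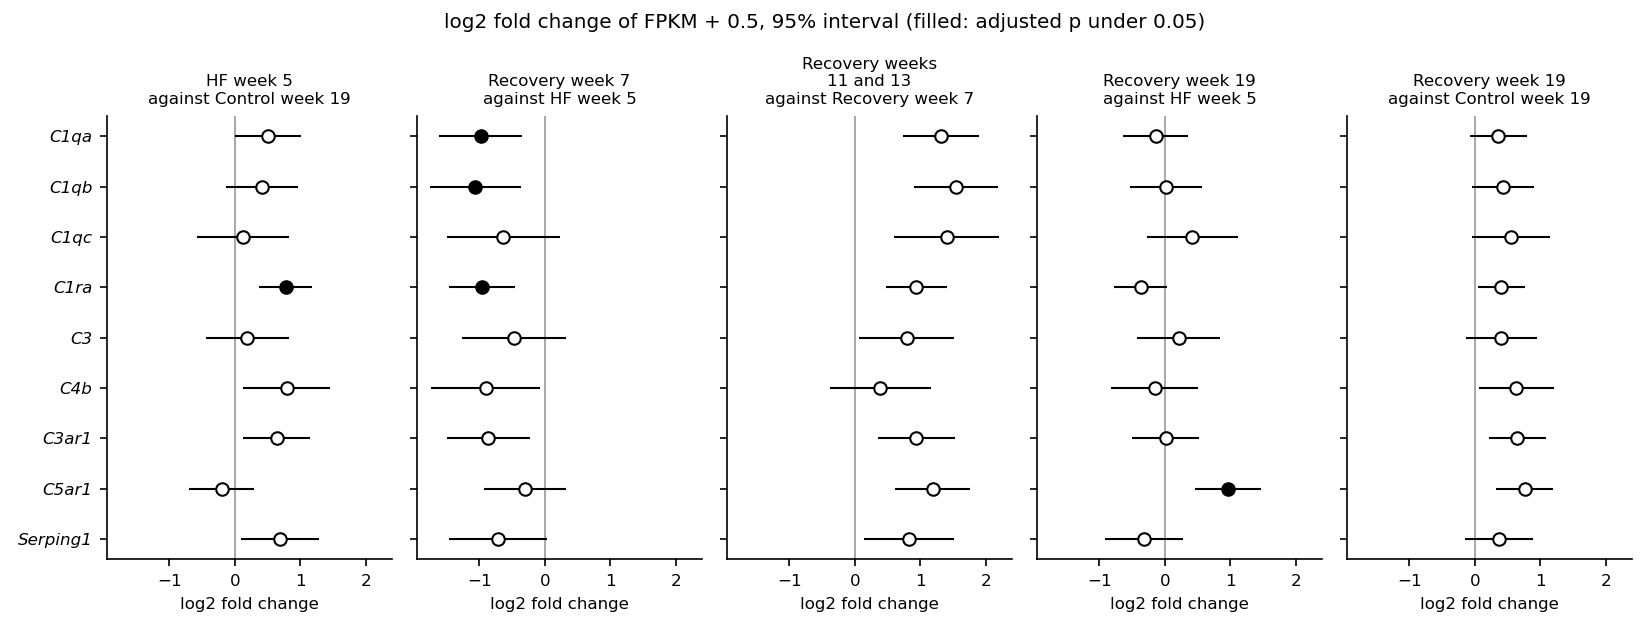
log2 fold change of FPKM + 0.5 (x axis) for each gene (y axis) in 5 comparisons (panels), with the 95% interval of the limma fit as a line. Filled points have an adjusted p under 0.05, namely C1ra in the first panel, C1qa, C1qb and C1ra in the second and C5ar1 in the fourth, and the groups of the third panel were chosen after their means were seen.

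C1qa, C1qb and C1qc encode the 3 chains of C1q. C1qa stood at 117, 109, 92.1, 98.7 and 161 FPKM in Control week 19 and at 214, 117 and 165 FPKM in HF week 5. At Recovery week 7 it was 76.6 and 85.9 FPKM, at week 11 it was 204, 158 and 208 FPKM, and at week 13 it was 202 and 234 FPKM. The week 7 libraries were below every control and every HF week 5 library, and the week 13 libraries were above every control. By Recovery week 19 the 5 libraries lay at 100, 183, 119, 141 and 215 FPKM and overlapped the controls and HF week 5.

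C1qb followed C1qa closely. It was 153, 71.3 and 99 FPKM in HF week 5 libraries, 51.4 and 46.6 FPKM at Recovery week 7, then 141, 117 and 163 FPKM at week 11, and 128 and 174 FPKM at week 13. Controls lay between 64 and 98.1 FPKM, so that week 7 was below all of them and weeks 11 and 13 were above all of them. The ratio of C1qa to C1qb stayed between 1.27 and 2 over the 24 libraries. The ratio of C1qc to C1qb stayed between 0.82 and 1.41 in 23 libraries and was 4.22 in HF week 3 library 1, where C1qc was 417 FPKM against 98.4 FPKM in library 2 of that group.

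From HF week 5 to Recovery week 7, C1qa changed by -0.98 on the log2 scale of FPKM + 0.5 (SE 0.302, limma adjusted p = 0.0352) and C1qb by -1.06 (SE 0.331, adjusted p = 0.0376). C1qc changed by -0.64 (SE 0.415, adjusted p = 0.319), with no overlap between the groups either. In all, 7 of the 9 genes were lower in both week 7 libraries than in all HF week 5 libraries, C3 and C5ar1 being the others, where 27% of all genes were. The C1qa and C1qb calls did not hold when HF week 5 library 1, HF week 5 library 3 or either Recovery week 7 library was left out, with adjusted p-values of 0.0626 to 0.199, nor with only the 2 groups in the fit, with 0.104 and 0.12, a fit that called 0.533% of all genes lower. The direction was the same in each of these, and over all alternatives the adjusted p ran from 0.011 to 0.184 for C1qa and from 0.0139 to 0.199 for C1qb.

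In HF week 5 against Control week 19 none of the C1q chains passed the test. The log2 fold changes were 0.5 for C1qa (95% interval 0 to 1.01), 0.41 for C1qb (-0.14 to 0.96) and 0.13 for C1qc (-0.57 to 0.82), and the groups overlapped. After quantile normalization C1qa was called higher (0.58, adjusted p = 0.0371). In HF week 3, C1qa was 198 and 192 FPKM, above all controls (log2 fold change 0.78, SE 0.276, limma adjusted p = 0.0244; 0.126 without library 1 and 0.0656 without library 2). The C1qc call there, 1.12 (SE 0.38, adjusted p = 0.0193), was 0.08 (adjusted p = 0.879) without library 1.

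Recovery weeks 11 and 13 together were also set against week 7, a comparison chosen after the group means were seen, so its p-values are not independent of that choice. The log2 fold change was 1.32 for C1qa (SE 0.278, limma adjusted p = 0.063), 1.55 for C1qb (SE 0.305, adjusted p = 0.0514) and 1.4 for C1qc (SE 0.382, adjusted p = 0.145). Of the 9 genes, 8 were higher in all 5 libraries of weeks 11 and 13 than in both of week 7, C4b being the exception, where 13.3% of all genes were. At the adjusted p of limma none was called (0.0784% of all genes), and at an unadjusted p under 0.05 in limma 8 were, where 7.63% of all genes were. With only these groups in the fit, C1qa, C1qb, C1qc and C5ar1 passed the adjusted threshold, where 1.2% of all genes were higher.

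C1ra encodes C1r, the protease that C1q activates first. It was 6.66, 6.12, 5.77, 5.99 and 6.4 FPKM in Control week 19 libraries, 14.9, 7.53 and 11.6 FPKM in HF week 5, and 6.16 and 4.71 FPKM at Recovery week 7. All HF week 5 libraries were above all controls, and Recovery week 7 lay below all HF week 5 libraries and within reach of the controls. It was 7.82 and 10.6 FPKM at Recovery week 9, then 9.03, 11.9 and 14.1 FPKM at week 11, then 8.96 and 11.5 FPKM at week 13, and 7.65, 9.19, 7.81, 7.67 and 9.57 FPKM at week 19. From week 9 on, every recovery library was above every control.

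C1ra rose in HF week 5 against Control week 19 by a log2 fold change of 0.78 (SE 0.195, limma adjusted p = 0.00771) and was lower at Recovery week 7 by -0.96 (SE 0.244, adjusted p = 0.0141). It was the 1 gene of 9 with no overlap between HF week 5 and the controls, where 14.8% of all genes were higher in this way. Without HF week 5 library 1 the rise was 0.56 (adjusted p = 0.0864), and without libraries 1 and 2 it was 0.86 (adjusted p = 0.0718). The adjusted p ran from 0.00122 to 0.0864 over the alternatives. The fall at week 7 missed the threshold without HF week 5 library 1 (adjusted p = 0.0737), without Recovery week 7 library 2 (0.163) and with only the 2 groups in the fit (0.125). At Recovery week 19 the difference from the controls was 0.4 (SE 0.169), with no overlap and an adjusted p of 1 in limma. C1ra and C5ar1 were the 2 of 9 genes without overlap there, where 0.925% of all genes were higher in this way. C1rb, a close copy of C1ra on the other side of C1s1, was at most 0.03 FPKM in any library, and reads that fit both genes may be counted under C1ra.

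C4b encodes complement C4, and C4a the closely related sex-limited protein. The sequences are nearly identical and the split of reads between them is uncertain, so C4b is also given with C4a added. C4b alone was 2.06, 1.86, 1.45, 1.86 and 0.809 FPKM in Control week 19 libraries, 6.38, 2.64 and 1.56 FPKM in HF week 5 libraries, 4.06 and 4.31 FPKM in HF week 3, and 3.29, 4.2, 2.41, 2.8 and 1.42 FPKM at Recovery week 19. HF week 5 overlapped the controls, with a log2 fold change of 0.79 (SE 0.319, limma adjusted p = 0.0787), and both HF week 3 libraries were above all controls. Without HF week 5 library 3 the value was 1.18 (adjusted p = 0.0163), and without library 1 it was 0.31 (adjusted p = 0.558).

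C4a was 4.23, 4.57, 3.2, 3.05 and 8.28 FPKM in Control week 19 libraries, 52.1, 20.1 and 12.7 FPKM in HF week 5 and 1.83 and 2.18 FPKM at Recovery week 7. Every HF week 5 library was above every control. C4a and C4b together were 6.28 ± 1.76 FPKM (SD, n = 5) in Control week 19 libraries, 31.8 ± 23.5 FPKM (n = 3) in HF week 5 libraries, 3.4 ± 0.0887 FPKM (n = 2) at Recovery week 7 and 7.78 ± 3.65 FPKM (n = 5) at Recovery week 19. The sum, fitted as 1 gene after seeing the data, rose in HF week 5 by 2.04 (SE 0.343, limma adjusted p = 0.00046), fell to Recovery week 7 by 2.8 (SE 0.428, adjusted p = 0.000725) and was lower at Recovery week 19 than in HF week 5 by -1.81 (SE 0.343, adjusted p = 0.00116). C4a alone was higher in HF week 5 by 1.76 (limma adjusted p = 0.019) without HF week 5 library 1 and by 1.43 (adjusted p = 0.197) without libraries 1 and 2. Over the 24 libraries the sum of C4a and C4b correlated at 0.905 with the summed hepatocyte markers, 0.853 with the atrial, 0.851 with the endothelial and 0.832 with the mesothelial. It correlated at 0.716 with the monocyte and neutrophil, 0.704 with the lymphocyte, 0.694 with the fibroblast and 0.616 with the macrophage markers. C4b alone correlated at -0.741 with the cardiomyocyte markers, summed over 9 of 12 names without Myh6, Actc1 and Myl2. The order of C4a in HF week 5 libraries 1 to 3 was that of the atrial, hepatocyte, mesothelial, monocyte and neutrophil, and adipocyte sums. Of the hepatocyte markers, Alb and Fgb were at 0 in every HF week 5 library. The part of these markers in the C4 values was not tested. The share of C4b in the sum was 28.9% to 37.9% in Control week 19 libraries 1 to 4 and 8.9% in library 5. It was 40.2% to 61.7% in Recovery week 19 libraries 1 to 4 and 9.94% in library 5, and 10.9% to 11.6% in HF week 5.

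**Figure D3:**
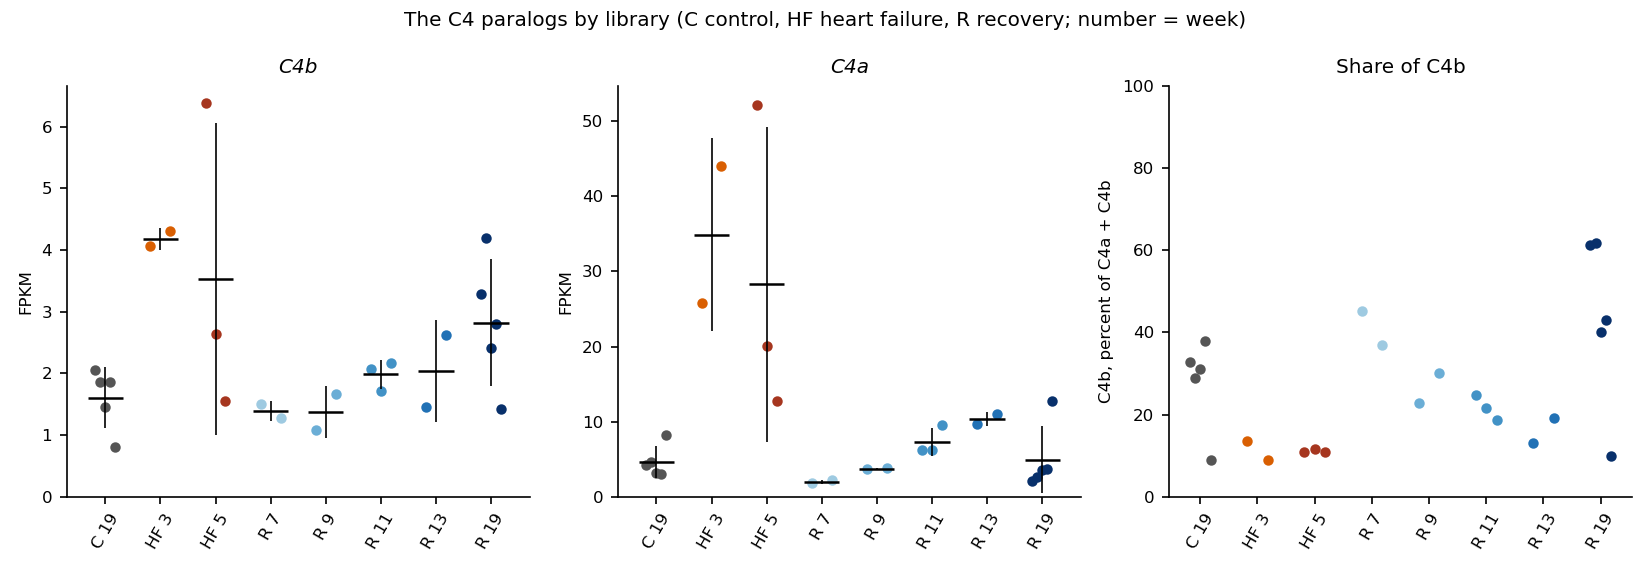
FPKM of C4b and C4a (left and middle, y axes linear from 0) and C4b as a percentage of their sum (right) in each library (points) by group, with group means (horizontal lines) and SD (vertical lines) in the first 2 panels. The HF week 5 libraries stand high in C4a, from 12.7 to 52.1 FPKM, and low in the share of C4b, from 10.9% to 11.6%.

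C3 is the protein on which the ways of starting complement meet. It was 38.3, 41.7, 25.4, 33.6 and 27.7 FPKM in Control week 19 libraries, 56.7, 31.6 and 29.5 FPKM in HF week 5, and 29.6 and 24.7 FPKM at Recovery week 7. These groups overlapped, and C3 differed by 0.19 in HF week 5 (95% interval -0.44 to 0.82) and by -0.47 from HF week 5 to Recovery week 7 (-1.26 to 0.32). At Recovery week 19 it was 38.4, 52.4, 35, 44.9 and 49.5 FPKM, 0.4 above the controls on the log2 scale (-0.14 to 0.95). The HF week 3 libraries were 36.7 and 131 FPKM. C3 was called higher there (1.07, SE 0.346, limma adjusted p = 0.0147), a call lost with only the 2 groups in the fit (adjusted p = 0.0972). Without library 1, which stood apart, the value was 1.99 (adjusted p = 0.000239), and without library 2 it was 0.16 (adjusted p = 0.681). The summed level of 6 mesothelial markers was 73.4 and 237 FPKM in the HF week 3 libraries, 84.6, 32.2 and 11.6 FPKM in those of HF week 5 and 1.99 to 3.3 FPKM in Control week 19. The 9 hepatocyte markers summed to 70 and 117 FPKM in HF week 3, to 153, 39.1 and 34.6 FPKM in HF week 5 and to 20.1 to 25.8 FPKM in Control week 19. Of these, Alb and Fgb were at 0 in every HF week 5 library and Serpina1a in every HF week 3 library. Alb, Serpina1a, Fgb and Fga were at 0 in every control, so the sums rest on the other names. The monocyte and neutrophil markers summed to 46.3 and 52.9 FPKM in HF week 3 and to 78.7, 15.7 and 14 FPKM in HF week 5. The order of the mesothelial, hepatocyte, monocyte and neutrophil sums, and of the atrial sums given above, was that of C3 within both HF groups. Over the 24 libraries their correlation with C3 was 0.397 for mesothelial, 0.508 for atrial and 0.713 for hepatocyte markers, and their part in the C3 values was not tested.

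C5ar1 encodes the C5a receptor of myeloid cells. The summed level of 11 monocyte and neutrophil markers was 6.91 to 39.7 FPKM in Control week 19 libraries, 46.3 and 52.9 FPKM in HF week 3, 78.7, 15.7 and 14 FPKM in HF week 5 libraries 1 to 3 and 13.3 to 29 FPKM at Recovery week 19. The summed level of 18 macrophage markers was 629 and 574 FPKM in HF week 3 and 710, 367 and 637 FPKM in HF week 5. Over the 24 libraries C5ar1 correlated at 0.388 with the first sum and at 0.718 with the second, and the part of either in the C5ar1 values was not tested. C5ar1 was 3.88, 3.32, 3.2, 3.23 and 3.72 FPKM in Control week 19 libraries, 4.14, 2.42 and 2.51 FPKM in HF week 5, and 4.03, 10.2, 4.71, 6.76 and 6.74 FPKM at Recovery week 19. All Recovery week 19 libraries were above all controls, and library 1 of that group was below HF week 5 library 1. C5ar1 was higher at Recovery week 19 than in HF week 5 by 0.96 (SE 0.24, limma adjusted p = 0.00755), a call kept when any 1 library was left out. With HF week 5 library 3 alone in its group it was 1.15 (adjusted p = 0.0839). Against Control week 19 the difference was 0.76 (SE 0.208, unadjusted p = 0.00168, adjusted p = 0.859).

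In HF week 3 C5ar1 was 4.82 and 6.8 FPKM, above all controls and all HF week 5 libraries. It was lower in HF week 5 than in HF week 3 by -0.86 (SE 0.3, limma adjusted p = 0.0474), the 1 gene of 9 called in that comparison, where 8.28% of all genes were lower. At an unadjusted p under 0.05, 3 of 9 were lower (15.4% of all genes). The call was lost without HF week 3 library 1 (-1.09, adjusted p = 0.21), HF week 3 library 2 (-0.63, 0.168), HF week 5 library 2 (-0.74, 0.133) or HF week 5 library 3 (-0.76, 0.12), and with only the 2 groups in the fit (-0.86, 0.533), a fit that called 0.047% of all genes lower. At Recovery week 7 it was 2.49 and 2.09 FPKM, below all controls, and at week 13 it was 5.44 and 7.39 FPKM, above all of them.

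C3ar1 encodes the C3a receptor and was the lowest of the 9 in every group. It was 0.623, 0.591, 0.452, 0.847 and 1.67 FPKM in Control week 19 libraries, 1.17, 1.52 and 1.84 FPKM in HF week 5, and 0.671 and 0.523 FPKM at Recovery week 7. The fifth control lay among the HF week 5 libraries and the other 4 below them. The difference in HF week 5 was 0.64 on the log2 scale (SE 0.243, limma adjusted p = 0.061), and 0.83 (adjusted p = 0.00711; range over the alternatives 0.00711 to 0.207) without that control. The difference from HF week 5 to Recovery week 7 was -0.86 (SE 0.303, adjusted p = 0.0604) with no overlap. Without the HF week 3 libraries in the fit both passed the threshold in limma, with adjusted p = 0.0426 in HF week 5 and 0.0396 at Recovery week 7, where 4 of the 9 genes and 11.9% of all genes were then called lower. At Recovery week 19 it was 0.853, 1.59, 1.7, 1.52 and 2.08 FPKM, 0.65 above the controls (SE 0.21, unadjusted p = 0.00581, adjusted p of 1).

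Serping1, the regulator, stood at 88.5, 87.1, 69.1, 79.6 and 120 FPKM in Control week 19, at 187, 103 and 146 FPKM in HF week 5 and at 84.8 and 86.5 FPKM at Recovery week 7. HF week 5 library 2 was below the fifth control, and both week 7 libraries were below all HF week 5 libraries. It was 126, 174 and 212 FPKM at Recovery week 11, above all controls. The log2 fold change in HF week 5 was 0.69 (SE 0.284, limma adjusted p = 0.0846), which passed the threshold without the fifth control (0.8, adjusted p = 0.0466), without HF week 5 library 2 (0.91, adjusted p = 0.0427), without the HF week 3 libraries (0.69, adjusted p = 0.0283), with only the 2 groups in the fit (adjusted p = 0.0494, where 2 of the 9 genes and 12.3% of all genes were called higher) and after quantile normalization (0.76, adjusted p = 0.0465). Over the alternatives its adjusted p ran from 0.0283 to 0.363. In HF week 3 it was 77.9 FPKM in library 1 and 215 FPKM in library 2.

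The genes most like each of the 9 across libraries differed between them. Over the 24 libraries, which share the depth and composition differences given above, the genes outside complement with the highest Pearson correlation of log2(FPKM + 0.5) to C1qa were Tyrobp (0.953), Fcgr3 (0.931) and AK209885 (0.93). To C1qb they were Tyrobp (0.943), Fcgr3 (0.938) and Ctss (0.938). Tyrobp and Fcgr3 encode an adaptor and an Fc receptor of myeloid cells, and Ctss a lysosomal protease. C1qc was closest to Ccl8 (0.89), Clta (0.875) and Selplg (0.869), and without HF week 3 library 1 to Emr1 (0.943), Lyz2 (0.929) and Ctss (0.919), which macrophages express.

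The closest genes of the others changed in part or in full without that library. C5ar1 was closest to Alox5ap (0.838), Lyz2 (0.825) and Ms4a6d (0.823), and C3ar1 to Clec4n (0.872), Tyrobp (0.834) and Anxa2 (0.821). C1ra was closest to Clip3 (0.907), Dcn (0.906) and Serpinf1 (0.904), and Serping1 to Serpinf1 (0.902), Dpt (0.9) and Rpl10 (0.899). Dcn and Dpt encode matrix proteins of fibroblasts. Without HF week 3 library 1 none of these names remained among the 3 closest, which were Sfrp1 (0.946), Ccdc80 (0.927) and Mmp23 (0.916) for C1ra and Npc2 (0.956), Vkorc1 (0.946) and Igf1 (0.946) for Serping1. C3 was closest to Gabarapl1 (0.851), Tgfbr2 (0.847) and Timp2 (0.835), and without that library to Col1a1 (0.875), Soat1 (0.872) and Mt2 (0.869). C4b was closest to Shc1 (0.874), Foxc2 (0.817) and Gpr124 (0.815). Among the 9 genes themselves the correlation was highest for C1qa with C1qb (0.957) and C1ra with Serping1 (0.894) and lowest for C4b with Serping1 (0.206). Without HF week 3 library 1 the highest were C1qa with C1qb (0.973) and C1qb with C1qc (0.93), ahead of C1ra with Serping1 (0.911), and the lowest was C1qc with C4b (0.262).

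The summed level of macrophage markers, of which 18 of 19 names were in the table and none was at 0 in every library of a group, is set beside the C1q chains. It was 311 to 565 FPKM in Control week 19 libraries, 574 to 629 FPKM in HF week 3 libraries, 367 to 710 FPKM in HF week 5 libraries, 267 to 298 FPKM at Recovery week 7, then 316 to 494 FPKM at week 9, then 535 to 714 FPKM at week 11, then 680 to 933 FPKM at week 13 and 383 to 757 FPKM at week 19. From HF week 5 to Recovery week 7, 5 of these 18 genes fell and 0 rose at the adjusted p of limma, where 6.75% of all genes fell. The sum hides members that differed, as in HF week 3, where 5 of the 18 were called higher than in Control week 19 (23.1% of all genes) and 2, Cd68 and Laptm5, lower (27.6%), both listed at 0 in library 1. In HF week 5 the means of Cd68 and Laptm5 were 5.72 and 4.66 FPKM, below 6.69 and 6.38 FPKM in Control week 19, with libraries that overlapped. At Recovery week 7 the means were 5.71 and 5.45 FPKM. More cells of a type and more RNA per cell cannot be told apart in bulk tissue. The summed level of 12 fibroblast markers was 889 to 1130 FPKM in Control week 19 libraries, 2050 to 2080 FPKM in HF week 3 libraries, 1290 to 2610 FPKM in HF week 5 libraries, 1070 to 1360 FPKM at Recovery week 7, then 1610 to 2310 FPKM at week 11 and 1140 to 1860 FPKM at week 19. Its correlation over 24 libraries was 0.888 with C1ra and 0.802 with Serping1, and that of the macrophage sum was 0.964 with C1qa and 0.955 with C1qb. The sums did not part the genes cleanly. The fibroblast sum also correlated at 0.769 with C1qa and 0.739 with C1qb, the macrophage sum at 0.751 with C1ra and 0.705 with Serping1, and the sum of lymphocyte markers at 0.802 with C1ra. The part of these sums in the results was not tested.

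**Figure D4:**
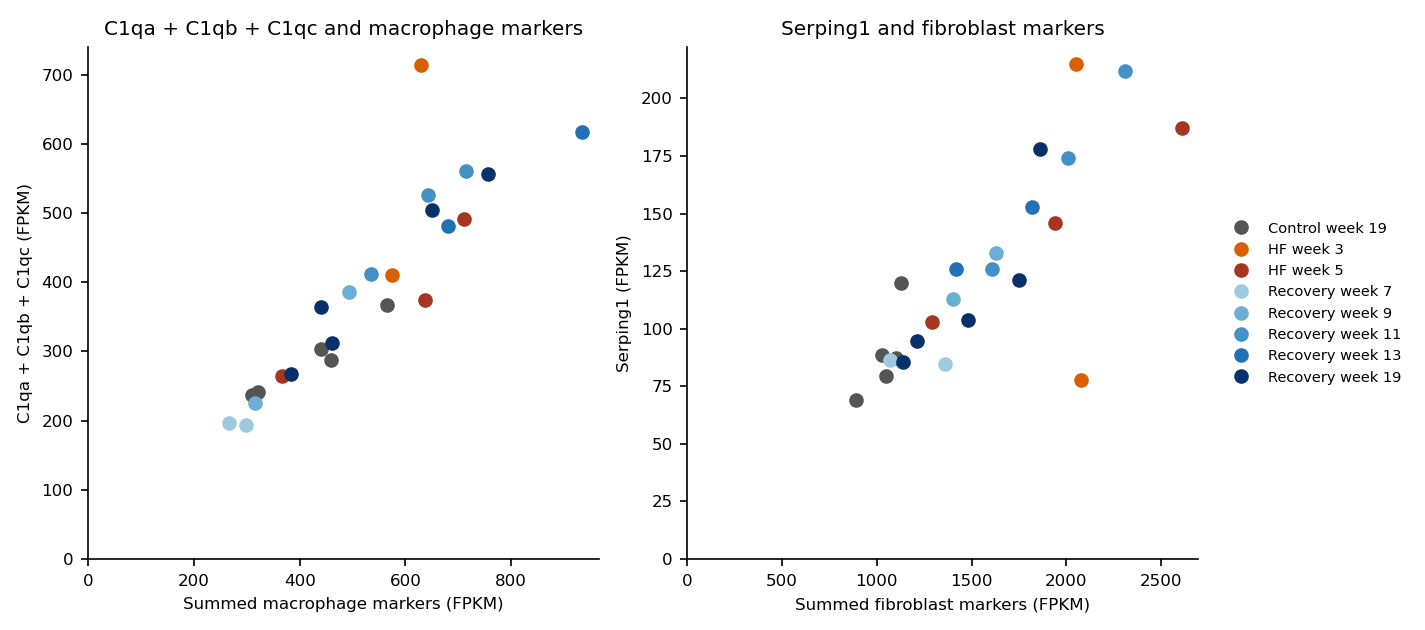
Summed FPKM of C1qa, C1qb and C1qc (left, y axis) against the summed FPKM of 18 macrophage markers (x axis), and FPKM of Serping1 (right, y axis) against the summed FPKM of 12 fibroblast markers (x axis), with each point a library coloured by group and all axes linear from 0. Recovery week 7 lies at the lower left on the left side, and HF week 3 library 1, with 714 FPKM of C1q chains and 77.9 FPKM of Serping1, lies off the other libraries in both.

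Of the other complement genes, 52 names were listed, 48 were in the table and 25 passed the filter on low values. C2 and Cfd passed it through the HF groups alone, with a mean of 0.362 and 0.288 FPKM over the 19 other libraries, and are given as values with no test. The remaining 23 were counted in a fit, made after seeing the data, of the 12,553 genes whose mean over those 19 libraries reached 0.5 FPKM. In HF week 5 against Control week 19, 6 of the 23 rose, where 10.9% of the genes in that fit did, and 0 fell, and the median log2 fold change was 0.28, beside 0.03 over all genes. By role, 2 of 6 genes of initiation rose (C1s, C4a), as did 1 of 2 of the alternative pathway (Cfb) and 3 of 7 receptors (Vsig4, Cd93, Lrp1), and 0 of 7 regulators were called. The 1 tested gene of the terminal pathway, C8g, was not called. From HF week 5 to Recovery week 19, 4 of the 23 fell and 0 rose, namely C4a, Cfb, Vsig4 and Cd93, where 11.3% of the genes fell. At Recovery week 19 against Control week 19 none was called in limma, and 4 were higher at an unadjusted p under 0.05, where 2.01% of all genes were.

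C2, the protease that C4 joins in the convertase, was 3.5, 1.04 and 1.02 FPKM in HF week 5 and 0.163 to 0.336 FPKM in Control week 19, with library 1 the high one. Factor B, its counterpart in the alternative pathway, was 3.82, 1.72 and 1.47 FPKM in HF week 5 and 0.603 to 1.47 FPKM in the controls (log2 fold change 0.86, SE 0.251, limma adjusted p = 0.0178 among all 12,759 genes), and 0.51 (adjusted p = 0.188) without library 1.

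Cfd encodes factor D, or adipsin, which fat cells make. It was 214, 189 and 1.28 FPKM in HF week 5 and at most 0.167 FPKM in Control week 19. The 2 high libraries are those with Adipoq at 10.5 and 15.6 FPKM, and the part of fat in the Cfd values was not tested. Vsig4, a receptor for C3 fragments on resident macrophages, was 18.5, 2.06 and 1.16 FPKM in HF week 5 and at most 0.917 FPKM in the controls. Cd93, a membrane protein of endothelium, was 16.4, 16.2 and 22.4 FPKM in HF week 5 and 7.85 to 11.2 FPKM in the controls (1.02, SE 0.179, adjusted p = 0.000634 in limma). The 12 endothelial markers summed to 573 to 918 FPKM in HF week 5 and to 401 to 504 FPKM in the controls, with 7 of 12 called higher, and their part in the Cd93 values was not tested. Lrp1, an endocytic receptor, was 16.7, 9.99 and 11.9 FPKM in HF week 5 and 7.33 to 8.63 FPKM in the controls (0.6, SE 0.152, adjusted p = 0.00782 in limma), and 10.1 to 13.8 FPKM at Recovery week 19, again above every control. C1s rose by 0.47 in HF week 5 (SE 0.164, adjusted p = 0.0427), a call lost without library 3 (0.38, adjusted p = 0.168). Without HF week 5 library 1 alone, C4a and Cd93 were still called of the 6 in HF week 5 against Control week 19, and C4a, Cfb and Cd93 of the 4 at Recovery week 19 against HF week 5. Without HF week 5 libraries 1 and 2, Cd93 was in each comparison.

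**Figure D5:**
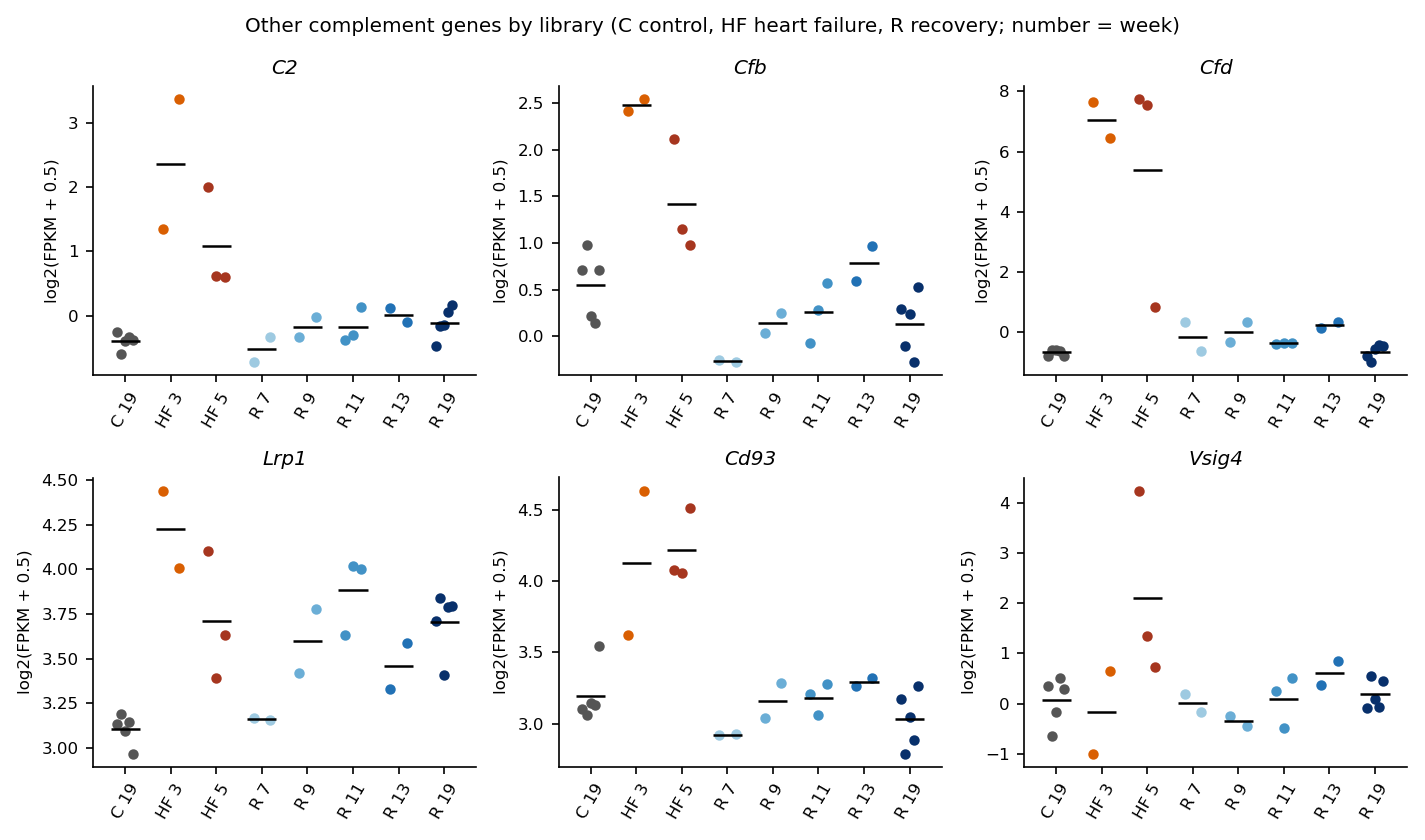
log2(FPKM + 0.5) (y axis) of 6 other complement genes in each library (points) by group (x axis: C control, HF heart failure, R recovery, number for the week), with group means (lines). Cfd is high in both HF week 3 libraries, at 202 and 87 FPKM, and in 2 of 3 HF week 5 libraries, at 214 and 189 FPKM, and Cd93 is high in all HF week 5 libraries.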

How the data were processed

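Poly(A) RNA of mouse hearts was sequenced in paired ends. Per the study's methods the authors aligned the reads to build MGSCv37 with TopHat2 and computed with Cuffdiff the deposited FPKM values, 1 column per library, which carry no counts, so a count test could not be used. The table holds 29 columns. The 24 of 8 groups were used and 5 columns of single samples were not, because they carry the name of Control week 5, for which 4 samples are labelled. Recovery week 9 had 2 columns for 3 labelled samples. No authors' fold changes or p-values were used.

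Genes whose mean reached 0.5 FPKM, 12,759 in number, entered a limma fit (version 3.58.1, R 4.3.3) on log2(FPKM + 0.5) that estimated 1 mean per group for 8 groups. It left 16 residual degrees of freedom and, with a variance trend, gave moderated two-sided tests with Benjamini-Hochberg adjustment over all genes tested and a threshold of 0.05. Fold changes on this scale understate those of low genes such as C3ar1. Other steps ran in python 3.11.15 with pandas 2.3.3 and numpy 2.4.6, and plots in matplotlib 3.10.9. On simulated data for HF week 5 against Control week 19 with 12,759 genes, the fit recovered 75% of 100 genes given a log2 change of 1 and 96% of 100 given 2. The simulated noise was independent and had 1 spread per gene in all groups. Only those genes were changed, whereas 24% of all genes were called in the data. The recovered shares are thus not the power of the real comparison.

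The 9 genes and the lists of other complement genes and cell type markers were chosen with earlier results of these data known. Named genes were the 9 genes, the other complement genes called in HF week 5 against Control week 19 or Recovery week 19 against HF week 5, and the 3 genes most like each of the 9 by Pearson correlation over the 24 libraries. Alternatives were other pseudocounts, filters and scalings, an unadjusted threshold, only the compared groups in the fit, the HF week 3 libraries left out, and each library left out in turn. Added after seeing the data were C4a and C4b as a sum, Recovery weeks 11 and 13 against week 7, a filter on the mean outside the HF groups, HF week 5 without libraries 1 and 2, and Recovery week 19 and Control week 19 without library 5 of each, which stood apart in the share of C4b. A complement gene is not reported here and was left out of the lists.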

Additional observations from a re-analysis of the deposited data

Results flagged for a closer look

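The difference of C5ar1 from the controls was not the same in the 2 HF groups by the test of 1 against the other, at an adjusted p close to the threshold. Relative to the same Control week 19 libraries, C5ar1 was 0.66 higher on the log2 scale in HF week 3 (limma adjusted p = 0.0529), with 0.88 without library 1 and 0.43 without library 2 (adjusted p = 0.306, the highest over its alternatives), and -0.2 in HF week 5 (adjusted p = 0.577). The difference between these effects, HF week 5 minus HF week 3, was -0.86 (adjusted p = 0.0474, limma, 2 and 3 libraries), and the adjusted p ran from 0.0221 to 0.533 over the alternatives. Without HF week 3 library 1, which stood apart, the difference was -1.09 (adjusted p = 0.21). The call was lost in 4 of the 5 fits that left out 1 library, with a pseudocount of 1, with no filter and with only the 2 groups in the fit. HF week 3 and HF week 5 also lie on opposite sides of the split in Myh6, from which the difference cannot be told apart.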

How the results depend on the processing

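Of 1755 values of single genes under alternatives, 1606 kept their direction and their side of the threshold, 40 lost a call, 70 gained one and 39 changed sign, and none of those 39 was called in either setting. An unadjusted threshold called 4 of the 9 genes in HF week 5 against Control week 19, 3 in HF week 5 against HF week 3, 5 in Recovery week 7 against HF week 5, 1 each at Recovery weeks 7 and 9, 7 at week 11, 6 at week 13 and 4 at week 19 against Control week 19, 8 in weeks 11 and 13 against week 7, and 4 of the other complement genes at week 19 against Control week 19. With only the compared groups in the fit these were 2 in HF week 5 and 4 in HF week 3 against Control week 19 (12.3% and 14.8% of all genes higher), 0 in HF week 5 against HF week 3 (0.047% lower), 0 in Recovery week 7 against HF week 5 (0.533% lower), 3 at week 11, 4 at week 13 and 4 in weeks 11 and 13 against week 7 (0.752%, 0.893% and 1.2% higher). HF week 5 against HF week 3 gave 0 with a pseudocount of 1 and 0 with no filter, Recovery week 7 against HF week 5 gave 1 with no filter and 1 with median centring, and weeks 11 and 13 against week 7 gave 1 with a mean of at least 1 FPKM and 1 with the filter set outside the HF groups. HF week 5 against Control week 19 gave 3 after quantile normalization, 3 without the HF week 3 libraries and 2 with C4a and C4b summed, which also gave 2 in Recovery week 19 against HF week 5. The share of all genes called moved with the setting too. At Recovery week 7 against HF week 5, 6.75% were lower in the main fit and 11.9% without the HF week 3 libraries. These counts are thus not results about the 9 genes alone. Without HF week 5 libraries 1 and 2, which left 1 library in that group, the C1ra call in HF week 5 was lost. So was the C5ar1 call at Recovery week 19 against HF week 5. Cd93 then had a log2 fold change of 1.32 in HF week 5 against Control week 19 and of -1.49 at Recovery week 19 against HF week 5. The cause of the changes between settings was not tested.

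Leaving out 1 library at a time gave 0 to 3 of the 9 genes in HF week 5 against Control week 19, where 11.6% of all genes were higher with all libraries. It gave 1 to 2 in Recovery week 19 against HF week 5 (12.3% higher and 12% lower with all libraries). At week 11 against Control week 19 it gave 0 to 1 (0.149% in either direction with all libraries). The number called also changed with the library left out in HF week 3 against Control week 19 and in HF week 5 against HF week 3. The same held for Recovery week 7 against HF week 5 and for weeks 11 and 13 against week 7. In these 1 library can be left in a group, so no counts are given. Of the other complement genes without C2 and Cfd, C4a and Cd93 kept their call in HF week 5 whichever single library of that group was left out. C1s, Cfb, Vsig4 and Lrp1 lost theirs there without library 1, and C1s also without library 3. At Recovery week 19 against HF week 5, C4a, Cfb and Cd93 kept theirs and Vsig4 lost its call without library 1. Sign changes came with quantile normalization (C1qb -0.07 at Recovery week 19 against HF week 5; Serping1 0.06 at week 7 and C1qa -0.04 at week 9 against Control week 19) and without HF week 5 libraries 1 and 2 (C3 -0.15 in HF week 5; C4b 0.63 and C3ar1 -0.22 at Recovery week 19 against HF week 5). With 1 library left out, log2 fold changes spanned zero for C1qc (-0.02 to 0.34) and C3 (-0.1 to 0.36) in HF week 5 and Serping1 (-0.16 to 1.3) in HF week 3 against Control week 19. In HF week 5 against HF week 3 they did for C1qb (-0.37 to 0.17), C1qc (-2.04 to 0.04), C1ra (-0.29 to 0.47), C3 (-1.79 to 0.03) and Serping1 (-0.61 to 0.85), and at Recovery week 19 against HF week 5 for C1qa (-0.37 to 0.07), C1qb (-0.24 to 0.3), C4b (-0.55 to 0.33) and C3ar1 (-0.12 to 0.15). Against Control week 19 they did at week 7 for Serping1 (-0.11 to 0.09), at week 9 for C1qa (-0.36 to 0.39), C1qb (-0.37 to 0.52), C1qc (-0.26 to 0.45), C4b (-0.38 to 0.08), C3ar1 (-0.25 to 0.14) and C5ar1 (-0.48 to 0.13), and at week 13 for C4b (-0.06 to 0.61). No paired analysis was possible because the columns carry no replicate number of the labels. Groups of 2 and 3 libraries limit the precision, and a lone library left in a group is assumed to vary like the others.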
